A study of Mus musculus with 4 samples.

Results

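Cycling cardiomyocytes of mouse gastruloids at day 11 were examined cell by cell. They were chosen by measured values. A cell of the day 11 library with at least 2000 UMIs (unique molecular identifiers, each standing for 1 captured RNA molecule) and a mitochondrial share under 20% counted as cardiac when it held at least 30 UMIs of *Myl7* per 10000 and at least 2 UMIs of *Tnni3* plus *Ryr2*. A cardiac cell counted as cycling when it held at least 3 UMIs of *Mki67* plus *Top2a*. Of 9584 deposited barcodes of that day, 8730 passed the limits on depth and mitochondrial share, 1543 of these were cardiac, and 246 of these were cycling. The 1101 cardiac cells with 0 UMIs of *Mki67* plus *Top2a* served as the non-cycling set. The 196 cardiac cells with 1 or 2 such UMIs entered neither set. *Mki67*, *Top2a*, *Myl7*, *Tnni3* and *Ryr2* selected the cells, so their values are given as a description.

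Gastruloids are aggregates of embryonic stem cells that elongate and form derivatives of all germ layers in culture. All libraries came from wild type gastruloids of the mouse embryonic stem cell line Zx1, treated with the Wnt agonist CHIR99021 after aggregation. Addition of bFGF, VEGF and ascorbic acid began at day 4 and ended at day 7, so day 11 gastruloids had received the full course and then N2B27 medium alone, and day 6 gastruloids only a part of it. Several gastruloids were pooled for each day, and 1 library was sequenced for each of days 4, 5, 6 and 11 (31330 barcodes in all). The model is thus 1 cell line, 1 pool and 1 library per day, with no replicate, so no test was possible and differences between days cannot be told apart from differences between libraries.

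Heart muscle cells of the embryo divide while they already beat, and they largely leave the cell cycle after birth. A dividing cell copies its DNA in S phase, prepares in G2 and separates its chromosomes in mitosis (M), and cyclins that bind cyclin-dependent kinases (CDKs) drive each step. Many genes of G2 and mitosis are held silent in resting cells by the DREAM complex, which contacts promoters through a CHR element and works beside CCAAT boxes bound by NF-Y, whereas E2F factors act on genes of S phase.

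The day 11 library held 149169498 UMIs with a median of 11318 per barcode, and the day 6 library held 182150138 with a median of 23404. Pairs of libraries shared 5 to 23 barcodes, and 0 barcodes of the 246 cycling cells occurred in the other libraries. Levels are given as CPM, counts of a gene per 1000000 UMIs over all cells of a set. Ratios of CPM carry exact conditional binomial intervals and shares carry Clopper-Pearson intervals. These 95% intervals cover counting error alone.

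The cycling cells were deeper than the non-cycling cells. They had a median of 39736 UMIs (5761 to 131630) against 17708 (2014 to 114120). They also more often had high doublet scores, a measure of how closely a cell resembles simulated pairs of cells. Of the cycling cells, 125 of 246 (50.8%, 44.4 to 57.2%) were among the 8% of day 11 cells with the highest doublet scores, against 98 of 1101 (8.90%, 7.29 to 10.7%) of the non-cycling cells. The share was 14.3% among cycling cells outside the cardiac limits. Of 54 markers of other cell types (skeletal muscle, endothelium, mesenchyme, epicardium, neural, endoderm, blood and neural crest), 50 were higher in the cycling set and 0 were at zero in it. Among the 7879 genes with a mean of at least 10 CPM, 4114 were higher in the cycling set, while the 54 markers had no such limit on level. The summed level of the 54 markers was 1072 CPM against 514 CPM, with a median per cell of 4.27 against 2.29 UMIs per 10000.

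Neural markers summed to 242 CPM in cycling against 69.0 CPM in non-cycling cells, blood markers to 83.1 against 5.88 CPM and mesenchymal markers to 403 against 258 CPM. Among defining markers, the endothelial cadherin *Cdh5* was at 20.9 against 2.32 CPM, the neural factor *Sox2* at 20.7 against 4.17 CPM and the skeletal muscle factor *Myog* at 8.11 against 1.42 CPM. Comparisons of cycling with non-cycling cardiac cells of day 11 were therefore repeated in restricted sets of 103 cycling and 845 non-cycling cells. These had under 5 UMIs of these markers per 10000 and lay outside the top 8% of doublet scores. There the markers summed to 182 against 196 CPM and the neural markers to 7.29 against 11.3 CPM. The limit was set on these same markers, so their low sums follow from the choice of cells. Depth still differed, at a median of 35009 against 17033 UMIs. Cells outside the cardiac limits and cells of day 6 were not restricted by both limits, so values that involve them are for the full sets. The parts of doublets, of RNA from other cells and of depth in each result were not tested.

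**Figure D1:**
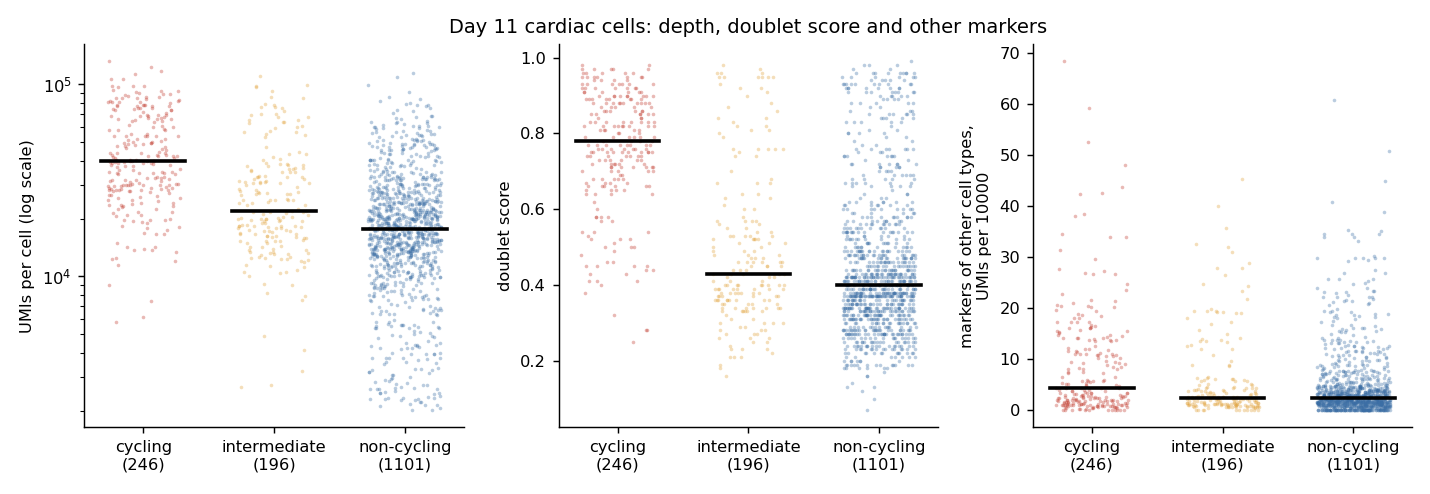
UMIs per cell on a log scale, doublet score and UMIs of markers of other cell types per 10000 UMIs for each cardiac cell of day 11 (points) in the cycling, intermediate (1 or 2 UMIs of Mki67 plus Top2a) and non-cycling sets, with the median as a bar. Median depth is 39736 in the cycling, 21912 in the intermediate and 17708 in the non-cycling set, and the doublet scores of the cycling set gather near the top of the scale around a median of 0.78.

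The cycling cells carried the RNA of heart muscle. *Tnnt2*, the tropomyosin-binding troponin, was found in 246 of 246 cells, *Actc1*, the cardiac actin, in 245, *Ttn* (titin) in 244 and *Myh6*, the alpha myosin heavy chain, in 234. The Z-disc protein *Actn2* was found in 229 (93.1%), the transcription factor *Nkx2-5* in 219 (89.0%) and *Myh7*, the beta myosin heavy chain, in 215 (87.4%). In the 1649 cycling cells outside the cardiac limits, at a median of 17805 UMIs, *Tnnt2* was found in 25.3%, *Nkx2-5* in 5.58% and *Actn2* in 3.34%. In the 103 restricted cycling cells, *Tnnt2* and *Ttn* were found in 103, *Actc1* in 102, *Actn2* in 99 and *Myh6* in 97. *Nkx2-5* was found there in 96 and *Myh7* in 93. The cardiac limits on *Myl7*, *Tnni3* and *Ryr2* divided the groups, so these shares describe the chosen cells and do not test the label. Shares in both groups rise with depth.

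The selecting genes were at the following levels. *Mki67* (ENSMUSG00000031004), a nuclear antigen of dividing cells, was at 208 CPM, and *Top2a* (ENSMUSG00000020914), the topoisomerase that untangles chromosomes, at 396 CPM. Per cell their summed UMIs had a median of 22 (3 to 162). *Myl7* (ENSMUSG00000020469), the atrial light chain that all early cardiomyocytes carry, was at 13483 CPM in cycling and 17211 CPM in non-cycling cells. Cardiac troponin I, *Tnni3* (ENSMUSG00000035458), was at 1859 against 2344 CPM, and the calcium release channel *Ryr2* (ENSMUSG00000021313) at 263 against 382 CPM. At the edge of the rule, 15 cycling cells held exactly 3 UMIs of *Mki67* plus *Top2a*, and 34 cardiac cells held 2 and 162 held 1. For *Myl7*, 19 of the cycling cells lay between 30 and 40 per 10000, and 14 cells with enough *Mki67* plus *Top2a* lay between 20 and 30.

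Of 7879 genes with a mean of both sets of at least 10 CPM, 296 (3.76%) were at least 2 times higher in cycling cells and 16 (0.203%) at least 2 times lower, on a scale of CPM plus 1. Of the same genes, 273 (3.46%) were higher and 29 (0.368%) lower by this limit in the restricted sets. These shares are printed as the background for the counts of list members below. They come from the contrast that chose the cells, and nothing is read from them. A gene near 0 in non-cycling cells passes the limit on its level only through the cycling cells, so counts and medians of lists describe the members that passed. The median log2 ratio over the 7879 genes was 0.02, and 0.05 in the restricted sets. Ratios were above 1 for 4114 and below 1 for 3765 of them, and for 4472 and 3407 in the restricted sets.

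Cyclins and CDKs separated by phase. Of 18 listed genes, 15 passed the limit on level, with 9 at least 2 times higher, 0 lower and a median log2 ratio of 1.85 (1.92 restricted). *Ccnb1*, the cyclin of entry into mitosis, was at 123 CPM in cycling against 1.03 CPM in non-cycling cells, a ratio of 119 (79.8 to 187) and of 224 (133 to 412) in the restricted cells. *Ccna2*, the cyclin of S and G2, was at 105 against 1.42 CPM, 74.0 times higher (52.4 to 108). The kinase that both bind, *Cdk1*, was at 155.4 against 7.60 CPM, 20.4 times higher (17.5 to 24.0). The cyclins that start S phase differed less: *Ccne1* was at 28.2 against 9.96 CPM, a ratio of 2.84 (2.39 to 3.37) that was 1.72 (1.28 to 2.28) in the restricted cells.

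The D-type cyclins, which relay growth signals in G1, had smaller ratios than the cyclins of S phase and mitosis. *Ccnd2* was at 359 against 355 CPM, a ratio of 1.01 (0.976 to 1.05), and its ratio in the restricted cells was 0.969 (0.915 to 1.03). *Ccnd1* was at 79.5 against 48.7 CPM, a ratio of 1.63 (1.49 to 1.78) that came to 1.12 (0.941 to 1.32) in the restricted cells. *Ccnd3* was slightly lower in cycling cells, at 248 against 283 CPM. RNA of all 3 D-type cyclins was thus found in both sets.

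Inhibitors of the cycle were expressed in both sets. Of 10 listed CDK inhibitors and pocket proteins, 5 passed the limit on level, with a median log2 ratio of 0.02 (0.33 restricted). *Cdkn1c*, the imprinted inhibitor p57, was the most abundant, at 766 CPM in cycling and 891 CPM in non-cycling cells, a ratio of 0.859 (0.838 to 0.881) and of 0.711 (0.676 to 0.747) in the restricted cells. *Cdkn1a*, the p53 target p21, was at 112 against 127 CPM. *Cdkn2d*, an inhibitor of the kinases that D-type cyclins bind, went the other way, at 159 against 95.2 CPM, 1.67 times higher (1.57 to 1.78) and 2.36 times (2.17 to 2.55) in the restricted cells. *Rb1*, the retinoblastoma protein, had a ratio of 1.32 (1.06 to 1.65).

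Regulators of the E2F and MuvB families varied widely among themselves. Of 16 listed genes, 10 passed the limit on level, 2 were at least 2 times higher, and the median log2 ratio was 0.39 (0.23 restricted). *E2f1*, an activator of S phase genes, was at 22.8 against 6.66 CPM, 3.42 times higher (interval 2.79 to 4.198). *Lin54*, the MuvB subunit that contacts the CHR, was at 15.5 against 5.67 CPM, 2.74 times higher. *Foxm1*, which acts on G2/M genes together with MuvB, was at 14.2 against 0.601 CPM, below the limit on mean level.

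Genes of DNA synthesis were higher in cycling cells. All 36 measured genes of the S phase list had ratios above 1, 28 of them at least 2, and the median log2 ratio was 1.82 (1.69 restricted, with 27 at least 2 times higher). *Rrm2*, the ribonucleotide reductase subunit made in S phase, led the list at 88.7 against 2.79 CPM, 31.8 times higher (24.7 to 41.5). The checkpoint gene *Clspn* was 22.1 times higher. At the low end were *Ubr7* at 1.06 times and the uracil glycosylase *Ung* at 1.11 times.

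Genes of the replication machinery, a list that shares 14 measured genes, *Rrm2*, *Pcna* and *Mcm5* among them, with the S phase list, were higher as well. Of 42 listed genes, 31 passed the limit on level and 21 were at least 2 times higher, with a median log2 ratio of 1.70 (1.59 restricted). *Mcm5*, a subunit of the replicative helicase, was at 39.1 against 5.41 CPM, 7.23 times higher (5.92 to 8.89), and *Mcm3* was 4.47 times higher. The sliding clamp *Pcna* was at 96.2 against 28.3 CPM, 3.39 times higher. *Rfc1* and *Gins4* were the lowest, at 1.25 and 1.22 times.

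Genes of G2 and mitosis had larger ratios than those of DNA synthesis, in cells that the rule chose by *Mki67* and *Top2a*, themselves genes of G2 and mitosis. All 50 measured genes of the G2/M list had ratios above 1 and 46 were at least 2 times higher, with a median log2 ratio of 4.26. In the restricted cells 47 were at least 2 times higher and the median was 4.67. *Kif11*, the kinesin that pushes spindle poles apart, was at 51.1 against 0.215 CPM, 238 times higher (101 to 736). *Hmmr*, a spindle protein, was at 124 against 0.644 CPM, 192 times higher (116 to 344). The kinetochore protein *Cenpf* was at 415 against 3.82 CPM, 109 times higher (88.0 to 135). *Cdc20*, the activator of the anaphase-promoting complex, was at 113 against 2.62 CPM. The lowest were genes that resting cells also use, with the heterochromatin protein *Cbx5* at 255 against 207 CPM (1.23 times), *Anp32e* at 1.33 times, *Ctcf* at 1.60 times and *Ckap5* at 1.77 times.

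Cell by cell, more of the cycling cells stood apart on the G2/M list than on the S phase list. The rule chose them by *Mki67* and *Top2a*, whose RNA is known to peak in G2 and mitosis, so this order of the lists is a description. The summed G2/M level per cell ran from 12.8 to 286.5 UMIs per 10000 in cycling cells with a median of 66.4. The median in non-cycling cells was 13.3. Of the cycling cells, 224 of 246 (91.1%) lay above the 95th percentile of the non-cycling cells, and 96 of 103 (93.2%) in the restricted sets. For the S phase list the medians were 14.6 and 4.53, and 151 of 246 cycling cells (61.4%) lay above that percentile. The 22 cycling cells under it on the G2/M list overlapped with non-cycling cells.

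**Figure D2:**
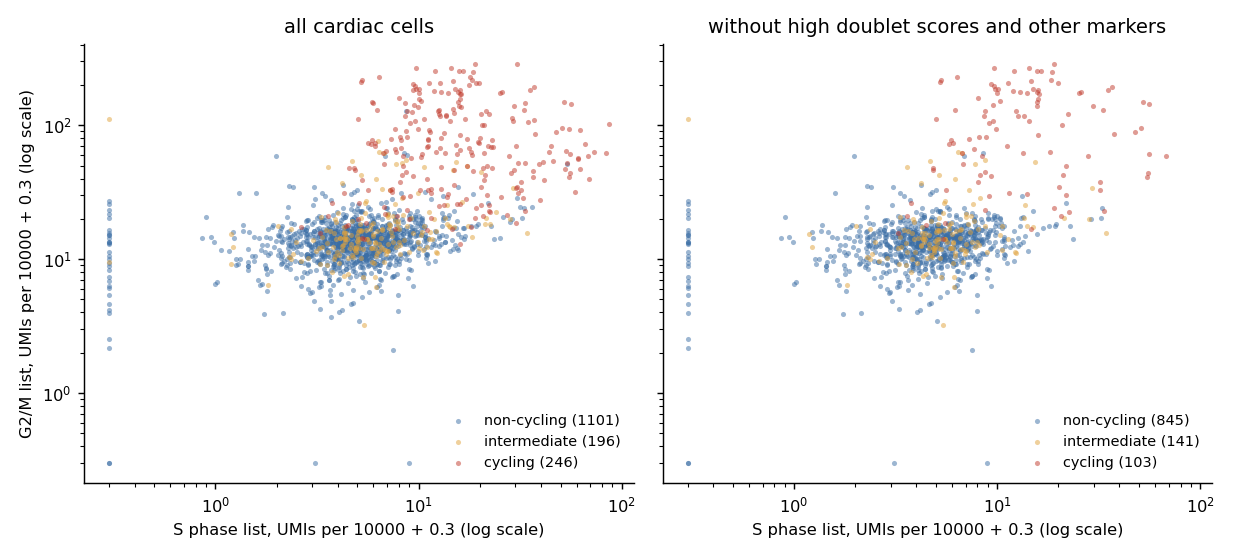
Summed UMIs of the S phase list (horizontal) and the G2/M list (vertical) per 10000 UMIs, each plus 0.3 and on a log scale, for every cardiac cell of day 11 (left) and for the restricted sets (right). Non-cycling and intermediate cells form 1 cloud near 13 on the vertical axis, and cycling cells reach 286.5 above it, both with and without cells of high doublet score.

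Promoters of 4 genes are shown as examples with and without the CHR letters near the start, chosen after their letters were seen. Each line gives the 100 bases before the transcription start in the direction of the gene, from RefSeq on GRCm38.p6, with CHR letters (TTTGAA or TTCGAA) and CCAAT boxes (CCAAT) in capitals on either strand. *Top2a*, a gene of the rule, stands beside *Cdk1*, *Ccnb2* and *Cdc20*.
Cdk1, chr10:69352913-69353012, minus strand: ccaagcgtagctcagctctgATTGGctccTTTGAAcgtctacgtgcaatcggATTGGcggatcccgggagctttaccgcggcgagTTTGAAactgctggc
Ccnb2, chr9:70421555-70421654, minus strand: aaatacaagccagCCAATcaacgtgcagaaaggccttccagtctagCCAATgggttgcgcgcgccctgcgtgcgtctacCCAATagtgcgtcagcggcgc
Cdc20, chr4:118437344-118437443, minus strand: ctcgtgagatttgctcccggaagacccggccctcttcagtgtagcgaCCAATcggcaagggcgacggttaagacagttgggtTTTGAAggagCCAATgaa
Top2a, chr11:99024190-99024289, minus strand: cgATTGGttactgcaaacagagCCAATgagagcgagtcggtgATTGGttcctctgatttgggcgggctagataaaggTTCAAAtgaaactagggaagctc

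In these stretches *Cdk1* had 2 CHR and 2 CCAAT matches, *Ccnb2* had 0 and 3, *Cdc20* had 1 and 2, and *Top2a* had 1 and 3. Over whole windows of 250 bases before to 50 after the start, RefSeq promoters were matched for 43 of the 50 measured G2/M genes, 47 promoters in all. A CHR was found in 36 (76.6%), a CCAAT box in 34 (72.3%) and both in 29 (61.7%). Over all 32851 promoters of 27025 genes a CHR was found in 19.2%, a CCAAT box in 37.4% and both in 7.52%. Of 41 promoters of 30 sarcomere genes, 5 (12.2%) held a CHR and 3 (7.32%) held both. A search on both strands for E2F letters used TTCCCGC first. It also used TTGGCGC beside the variant TTCGCGC and the variant TTGCCGC. Such a match was in 10 of the 47 G2/M promoters (21.3%) and in 9.57% of all promoters. On the opposite strand a CCAAT box reads ATTGG, so it can overlap TTGGCGC, and such letters counted for both. The same count for the S phase list was void, since only 26 of its 36 measured genes were matched. A match describes the letters and not a bound site.

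Genes of cytokinesis, the split of the cell body, were higher too, and 6 measured genes of this list, *Anln*, *Aurkb* and *Ect2* among them, are also on the G2/M list. Of 20 listed genes, 17 passed the limit on level and 14 were at least 2 times higher, with a median log2 ratio of 4.54 (5.06 restricted, with 13 at least 2 times higher). *Prc1*, which bundles the spindle midzone, was at 220 against 1.33 CPM, 166 times higher (116 to 244). *Plk1*, the polo kinase, was at 80.6 against 0.558 CPM, 144 times higher (84.0 to 272). *Anln* (anillin), the scaffold of the contractile ring, was at 52.7 against 1.67 CPM, 31.4 times higher (22.7 to 44.7). The kinase *Aurkb* was 51.9 times higher, and the ring activator *Ect2* 48.0 times.

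Genes of the ring that also serve other parts of the cell were near 1. *Rhoa* had a ratio of 0.880, *Sept7* of 0.966 and the non-muscle myosin *Myh10* of 1.27. *Myh9*, another non-muscle myosin, had a ratio of 2.46 that was 1.61 in the restricted cells. RNA of the midzone and ring was thus found in cycling cardiac cells, but whether the cells completed division was not measured.

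Within the cycling cells, cyclins followed the order of the cycle. The 246 cells were ordered by the G2/M part of their summed S and G2/M UMIs and cut into 3 groups of 82, with shares of 32.6 to 73.2%, 73.3 to 88.8% and 88.8 to 97.8%. Genes on either list helped to set this order, so genes on neither list are given first. *Ccne1* was at 62.4, 16.9 and 5.10 CPM from the S end to the M end. *Cdt1*, which licenses replication origins, was at 31.6, 10.7 and 1.91 CPM, and *Mcm3* at 102, 48.7 and 21.7 CPM.

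In the opposite direction, *Ccna2* was at 46.3, 88.6 and 198 CPM and *Ccnb1* at 27.5, 84.7 and 291 CPM. *Plk1* was at 18.5, 67.6 and 172 CPM. Their counting intervals did not overlap between neighbouring groups. *Ccnd2* was at 357, 384 and 325 CPM, with no steady order. In the restricted cells (35, 34 and 34) *Ccnb1* was at 42.4, 164 and 421 CPM and *Ccne1* at 33.9, 12.1 and 0.917 CPM, the last from 1 UMI. The share of cells among the highest doublet scores differed along the order, at 63.4%, 56.1% and 32.9%, and its part in these levels was not tested.

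**Figure D3:**
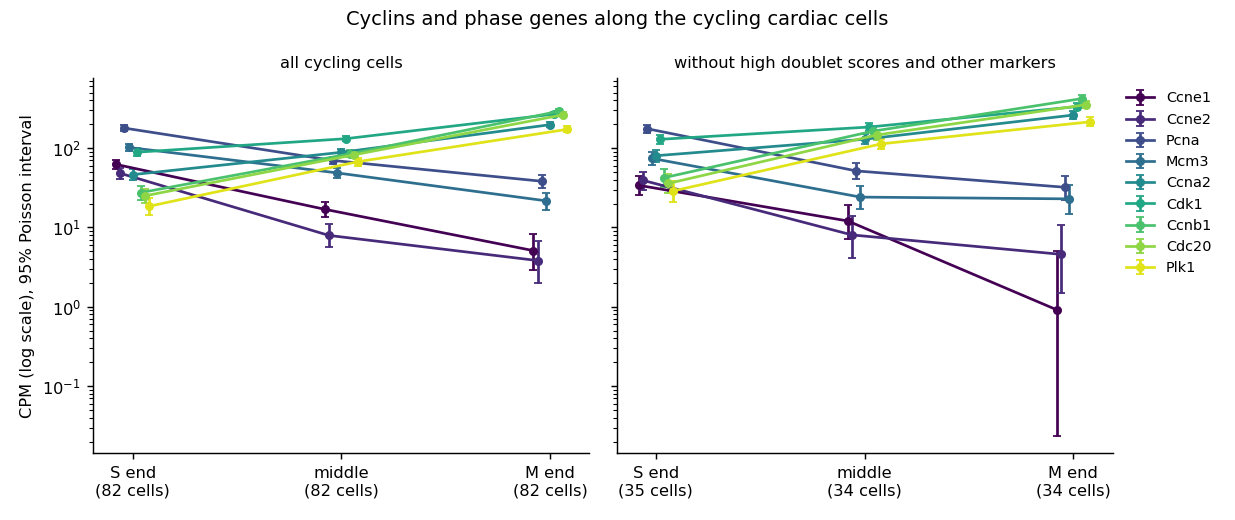
CPM on a log scale of 9 phase genes in the cycling cardiac cells, ordered from S to M and cut into groups of 82 (left) or, in the restricted cells, 35, 34 and 34 (right), with 95% Poisson intervals of counting error as bars. Ccne1 and Mcm3 stand lowest at the M end and Ccna2, Ccnb1 and Plk1 highest there; Ccne2, Pcna, Cdk1 and Cdc20 are on the lists that set the order.

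The median G2/M part was 82.0% in the cycling cardiac cells and 74.0% in the 1649 cycling cells outside the cardiac limits, a measure that depends on the lengths of the lists. The G2/M list already stood above the S phase list in non-cycling cardiac cells, with median summed levels per cell of 13.3 and 4.53. The G2/M part of non-cycling cells was not computed, so no lean towards a phase is read from these values. The rule itself used *Mki67* and *Top2a*, whose RNA is known to peak in G2 and mitosis.

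Most sarcomere genes were slightly lower in the cycling cells of the full sets. Of 38 listed genes, 37 passed the limit on level, and 36 had ratios below 1 in the full sets, beside 3765 of all 7879 genes. The median log2 ratio was -0.33, with an interval over genes of -0.43 to -0.24. In the restricted sets 20 were above and 17 below 1, beside 4472 of 7879 genes above 1. The median there was 0.03, with an interval over genes of -0.089 to 0.089, so no direction is read from it. *Tnnt2* was at 4261 CPM in cycling and 6274 CPM in non-cycling cells, a ratio of 0.679 (0.672 to 0.686) that was 0.869 in the restricted cells. *Actc1* was at 7214 against 9431 CPM, a ratio of 0.765 that was 0.950 in the restricted cells. *Ttn*, at 2778 against 3751 CPM, had a ratio of 0.740 in the full and of 1.003 (0.987 to 1.02) in the restricted sets.

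Myosin genes turned direction. *Myh7* was at 886 against 956 CPM, a ratio of 0.927, and 1.32 (1.28 to 1.36) in the restricted cells. *Myl2*, the ventricular light chain, was at 1618 against 1833 CPM, a ratio of 0.883, and 1.22 (1.19 to 1.24) in the restricted cells. *Myh6* had ratios of 0.853 and 1.06. Only 1 gene of the list was lower by 2 times or more in both: *Acta1*, skeletal alpha-actin, at 5.93 against 16.2 CPM, a ratio of 0.366 (0.279 to 0.475) and of 0.351 in the restricted cells. *Tpm2* and *Tcap* were next, at 0.607 and 0.655, and stayed low in the restricted cells at 0.607 and 0.682.

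Per cell, the summed sarcomere level had a median of 447 UMIs per 10000 in cycling cells (41.5 to 1092) and 583 in non-cycling cells (43.6 to 1997). In the restricted sets the medians were 558 and 629, and 5 of 103 cycling cells (4.85%) lay under the 5th percentile of the non-cycling cells. The sets overlapped over most of their range. By *Mki67* plus *Top2a* rate, the summed sarcomere level of the restricted cells was 64607 CPM in cells with none, 66257 CPM in 133 cells under 1 per 10000, 60016 CPM in 38 cells from 1 to under 3, 57013 CPM in 21 cells from 3 to under 6, 59513 CPM in 15 cells from 6 to under 10 and 57863 CPM in 37 cells at 10 or more. Across the same steps the summed G2/M level went from 1366 to 17074 CPM.

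Genes of calcium handling and conduction followed the sarcomere. Of 26 listed genes, 23 passed the limit on level with 0 at 2 times in either direction and a median log2 ratio of -0.23 (-0.06 restricted). Ratios were below 1 for 19 of them in the full sets, beside 3765 of all 7879 genes. In the restricted sets 10 were above and 13 below 1, with an interval over genes of -0.26 to 0.12, so no direction is read there. The lowest was the pacemaker channel *Hcn4*, at 43.0 against 74.7 CPM, a ratio of 0.575 and of 0.763 in the restricted cells. *Pln*, the inhibitor of the calcium pump, had ratios of 0.643 and 0.757, and the pump itself, *Atp2a2*, 0.743 and 0.869. The exchanger *Slc8a1* had ratios of 0.680 and 0.834. *Gjc1*, the connexin of early and conducting heart muscle, was higher at 59.2 against 40.7 CPM, with ratios of 1.45 and 1.44.

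Cardiac transcription factors were present in the cycling cells at levels close to those of the non-cycling cells. Of 29 listed genes, 27 passed the limit on level with 0 at 2 times in either direction and a median log2 ratio of -0.21 in the full and 0.04 in the restricted sets. *Nkx2-5* was at 118 against 141 CPM (ratios of 0.834 and 1.02), and *Gata4* and *Tbx5* had ratios of 0.861 and 0.835 in the full and 0.985 and 1.15 in the restricted sets. *Shox2*, a factor of the sinus venosus, was at 235 against 347.5 CPM, with ratios of 0.675 and 0.890. *Gata6* and *Isl1*, a factor of second heart field progenitors, had ratios of 0.735 and 0.691. The highest was *Tbx2*, a repressor of chamber genes in the atrioventricular canal, at 15.2 against 8.29 CPM, with ratios of 1.83 (1.48 to 2.26) and 1.91 (1.34 to 2.69). *Hand1*, a factor of the left ventricle and outer curvature, had ratios of 1.30 (1.04 to 1.62) and 1.92 (1.45 to 2.53).

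Chamber lists differed in their medians, but their intervals over genes overlapped, and the make-up of the sets differed too. Myl2-high cells, defined with the shares of marker classes below, were 43.7% of restricted cycling and 29.5% of restricted non-cycling cells. The part of this make-up in the medians was not tested. All 8 ventricular genes were measured, with a median log2 ratio of -0.17 (-0.63 to 0.09) in the full and 0.24 (-0.40 to 0.45) in the restricted sets. Of 9 atrial genes, 8 passed, with medians of -0.19 (-0.43 to 0.08) and 0.09 (-0.92 to 0.50). Of 8 sinus venosus genes, 7 passed, with medians of -0.68 (-0.92 to -0.02) and -0.38 (-1.14 to 0.04). Each of these restricted intervals spans both directions, so no direction is read from them. The calcium sensor *Vsnl1* was the lowest sinus venosus gene in the full sets, at 85.2 against 162 CPM, with ratios of 0.527 and 0.586. *Nppa*, the atrial natriuretic peptide, was at 149 against 168.9 CPM, a ratio of 0.881, and of 0.526 (0.476 to 0.581) in the restricted cells. Trabecular (6 measured) and compact layer genes (4 measured) had medians of 0.13 and 0.01, and of 0.16 and 0.21 in the restricted sets.

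Metabolic genes were slightly lower in the full sets. The median log2 ratio was -0.27 for 19 glycolysis genes, -0.37 for 18 genes of fatty acid oxidation and -0.18 for 78 genes of oxidative phosphorylation. In the restricted sets the medians were -0.17, -0.16 and -0.02, and 0 genes of these lists were past 2 times in either direction in either analysis. *Aldoc*, an aldolase, was the lowest of the glycolysis list, at 130 against 212 CPM, with ratios of 0.612 and 0.584. *Gapdh* had ratios of 0.900 and 0.914.

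Growth signals were also close. Of 22 listed genes, 12 passed the limit on level with a median log2 ratio of -0.07 (-0.05 restricted). The growth factor *Igf2* was at 713 against 765 CPM, with ratios of 0.932 and 0.820. *Erbb4*, the neuregulin receptor of heart muscle, had ratios of 0.879 and 1.22. *Ankrd1*, a stretch-responsive nuclear factor, had ratios of 0.646 and 0.735.

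Chromatin and tubulin genes of growing cells were higher. All 23 measured genes were above 1 in the full sets and 11 were at least 2 times higher, with a median log2 ratio of 0.94 (1.11 restricted, with 13). The chromatin protein *Hmgb2* was at 617 against 77.0 CPM, 8.01 times higher, the histone variant gene *H2afx* at 313 against 52.3 CPM, 5.98 times, and *Tuba1c*, an alpha-tubulin, 4.57 times. In the restricted cells these ratios were 10.1, 6.995 and 6.17. *Hmgb2* is also on the G2/M list, and the overlap of the chromatin and tubulin list with the phase lists was not counted.

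**Figure D4:**
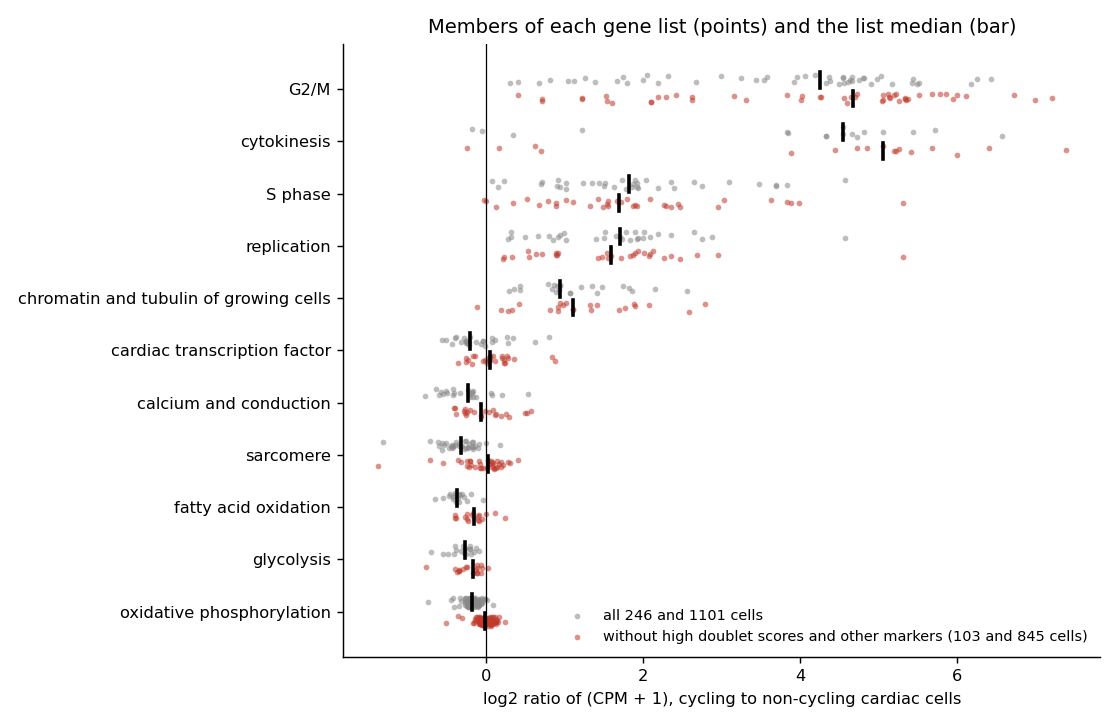
Log2 ratio of CPM plus 1 between cycling and non-cycling cardiac cells for each measured gene of 11 lists (points) with the list median (bar), in all cells (grey) and in the restricted sets (red). Medians of the G2/M, cytokinesis, S phase and replication lists lie between 1.59 and 5.06, and those of the contractile, transcription factor and metabolic lists between -0.37 and 0.04.

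Outside the cell cycle lists, the genes with the highest ratios at a mean of at least 50 CPM were mostly of chromosomes. The linker histone *Hist1h1b* was at 306 against 6.83 CPM, 44.8 times higher, and *Pclaf*, a PCNA-binding protein, at 249.5 against 6.31 CPM, 39.5 times higher. *Spc25* and *Spc24*, of the NDC80 kinetochore complex, were 43.6 and 18.4 times higher. *Pttg1* (securin) was 9.54 times and the condensin *Smc2* 9.42 times higher. These ratios were 49.3, 50.8, 70.9, 26.4, 13.7 and 13.1 in the restricted cells.

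Some high ratios did not persist in the restricted cells. *Fabp7*, a fatty acid binding protein of neural progenitors and a listed neural marker, was at 108 against 16.4 CPM, 6.60 times higher, and at a ratio of 0.961 (0.384 to 2.11) in the restricted cells. It is among the markers whose summed level set the restricted cells, so its fall there follows from that limit. *Ctla2a* went from 6.32 to 1.05 and *Tagln2* from 4.99 to 1.23.

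The lowest ratios outside the cell cycle lists belonged to genes of several kinds. *Acta2*, smooth muscle actin, was at 1010 against 2111 CPM (ratio 0.478, restricted 0.542), and *Tagln*, the smooth muscle protein SM22, at 22.6 against 103 CPM (ratios 0.220 and 0.312). *Malat1*, a nuclear long noncoding RNA, was at 6824 against 15862 CPM, with ratios of 0.430 and 0.490. *Gm42418*, a gene overlapping ribosomal RNA, had ratios of 0.488 and 0.505, and *Lars2*, a mitochondrial leucyl-tRNA synthetase, 0.493 and 0.495. In cells of 10000 to 40000 UMIs the ratios of *Malat1*, *Gm42418* and *Lars2* were 0.571, 0.777 and 0.795. The neuropeptide gene *Gal* was at 15.8 against 85.7 CPM, with ratios of 0.184 and 0.375. *Pnmt*, the enzyme that makes adrenaline, was at 45.4 against 121 CPM, with ratios of 0.377 and 0.147 (0.115 to 0.187). The growth factor *Bmp4* had ratios of 0.541 and 0.609. *Malat1* was also lower in cycling than in non-cycling cells outside the cardiac limits, at a ratio of 0.507.

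The phase lists were also set beside those of cycling cells of the rest of the library. Between cycling and non-cycling cells outside the cardiac limits, the median log2 ratios were 1.67 for the S phase list, 4.38 for the G2/M list and 4.72 for the cytokinesis list, against 1.82, 4.26 and 4.54 in cardiac cells. The helicase gene *Mcm5* had a ratio of 7.23 (5.92 to 8.89) in cardiac cells and of 3.66 elsewhere, where its level in non-cycling cells was 20.2 CPM. *Aurkb* had the higher ratio elsewhere, at 90.8 (69.6 to 121) against 51.9 (33.6 to 84.6).

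The genes whose ratios differed most between the cardiac and the other cells were largely of skeletal muscle and nerve. *Mylpf*, a fast skeletal myosin light chain, had a ratio of 1.27 in cardiac and 0.029 in other cells. *Sln* (sarcolipin), which is also on the atrial list, had 0.866 against 0.022. In the restricted cardiac cells their ratios were 1.52 (1.15 to 2.01) and 1.41 (1.31 to 1.52), so *Sln* changed direction there. The neuronal gene *Stmn2* had ratios of 2.70 and 0.160, with 0.510 (0.0984 to 1.68) in the restricted cardiac cells. *Stmn2* is among the markers whose summed level set the restricted cells, so this last value follows from that limit. In the other direction, *Nppa* had a ratio of 0.881 against 8.88 in other cells, where it was at only 4.305 against 0.485 CPM, and *Espn*, an actin bundling protein, 1.02 against 3.62. Their ratios in the restricted cardiac cells were 0.526 (0.476 to 0.581) and 0.595 (0.445 to 0.783).

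At day 6 the same limits gave 416 cardiac cells, of which 93 were cycling and 234 non-cycling, with median depths of 49514 and 23421 UMIs. The S phase and G2/M lists had median log2 ratios of 1.38 and 3.54 there. The sarcomere list had a median of -1.04, with 24 of 37 genes at least 2 times lower beside 1.62% of all genes, against -0.33 with 1 gene at day 11. *Tnnt2* was at 2073 against 4724 CPM and *Actc1* at 3633 against 7983 CPM at day 6, where the cycling cells held less *Tnnt2* than the cycling cells of day 11 (4261 CPM). *Cdkn1c* was at 1892 CPM in cycling and 2650 CPM in non-cycling cells of day 6, above both sets of day 11. Doublets were not scored at day 6, other markers stood at 4.71 against 2.95 UMIs per 10000, and day and library cannot be told apart.

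The share of cardiac cells in cycle depends on depth and was compared after each cell was thinned at random to 5000 UMIs, with a thinned cell counted as cycling at 1 or more UMIs of *Mki67* plus *Top2a*. Before thinning, at 3 UMIs, the share was 15.9% (14.2 to 17.9%) of cardiac and 22.9% (22.0 to 23.9%) of other cells of day 11. After thinning, 253 of 1450 cardiac cells (17.4%, 15.5 to 19.5%) and 1914 of 6940 other cells (27.6%, 26.5 to 28.6%) held such a UMI, and 93 and 247 shallower cells were left out. At 2 or more UMIs the thinned cardiac share was 10.6%, and no background share was subtracted, although cells with 1 or 2 UMIs before thinning were near the non-cycling cells in the G2/M list (median 14.3 against 13.3 UMIs per 10000). Without the highest doublet scores the shares were 11.99% (10.2 to 14.0%) and 25.9% (24.8 to 26.9%), so the cardiac share stood below the other cells in both and by more without these scores. At day 6 the thinned shares were 23.3% (19.3 to 27.8%) of cardiac and 49.4% (48.1 to 50.8%) of other cells.

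**Figure D5:**
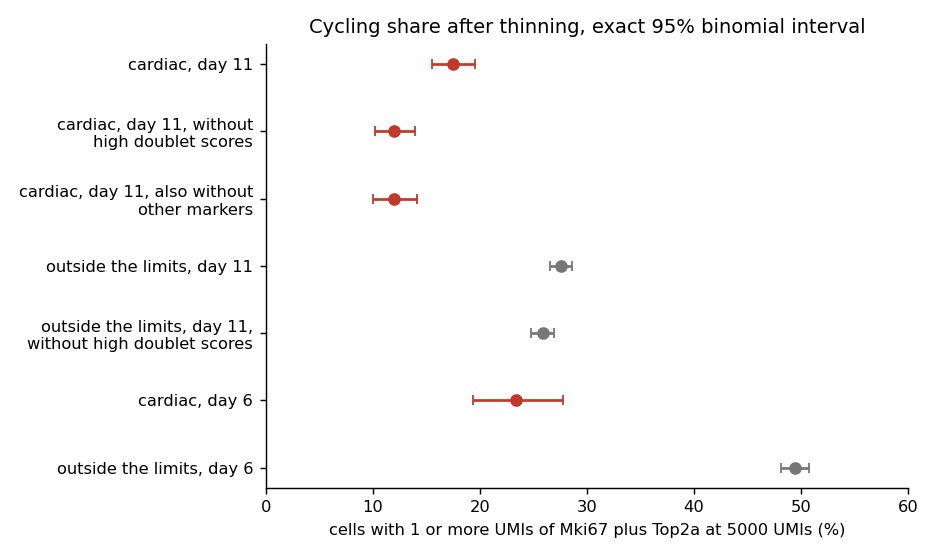
Share of cells with 1 or more UMIs of Mki67 plus Top2a after thinning to 5000 UMIs, in percent, with exact 95% binomial intervals of counting error, for cells inside (red) and outside (grey) the cardiac limits. Cardiac cells stand at 17.4% at day 11, 11.99% without high doublet scores and 23.3% at day 6, each below the cells outside the limits of the same day.

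Cycling cells were found in each class of cardiac cells set by *Myl2*, *Nppa* and *Shox2*. These classes are not chamber identities, and the paper states that *Nppa* is present in atrium and ventricle during development. Cells were put into classes by limits chosen after the levels had been seen, in this order: *Myl2* at 10 or more per 10000 UMIs, then *Nppa* at 2 or more, then *Shox2* at 2 or more, then the rest. Of the 246 cycling cells, 86 (34.96%) were Myl2-high, 16 Nppa-positive and 76 (30.9%) Shox2-positive, and 68 were below all limits. After thinning, 82 of 418 Myl2-high cells (19.6%, 15.9 to 23.8%), 14 of 86 Nppa-positive cells (16.3%, 9.20 to 25.8%), 89 of 534 Shox2-positive cells (16.7%, 13.6 to 20.1%) and 68 of 412 other cardiac cells (16.5%, 13.1 to 20.4%) were cycling, and the intervals of each pair of classes overlap. In the restricted cells the shares were 15.1% (11.4 to 19.6%), 8.82% (3.31 to 18.2%), 12.045% (8.86 to 15.9%) and 8.89% (5.78 to 12.9%). The intervals of each pair of classes overlap here too, but not at 3 UMIs without thinning, where the restricted Myl2-high cells stood at 13.3% (lower bound 9.85%) and the cells below all limits at 6.42% (upper bound 9.84%). The make-up of the sets differed as well. Myl2-high cells were 43.7% (33.9 to 53.8%) of 103 restricted cycling cells and 29.5% (26.4 to 32.7%) of 845 restricted non-cycling cells, and these intervals do not overlap.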

How the data were processed

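The authors made 1 Chromium single-cell library per day from pooled gastruloids and deposited UMI counts per gene and cell, which are raw and not normalized. Per the submitters' notes reads were mapped to mm10 with Cell Ranger 3.1.0, whereas the header of the day 11 matrix names 6.0.1. These counts were used as deposited. No deposited annotation of cell types was used here.

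Cells, sets and CPM were computed in Python 3.11.15 with numpy 2.4.6, scipy 1.17.1, scikit-learn 1.9.0 and pandas 2.3.3. Genes were counted as measured at a mean of at least 10 CPM over both sets, and log2 ratios used CPM plus 1. *Mki67* and *Top2a* were left out of all lists, and *Myl7* and *Tnni3* of the sarcomere list. S phase and G2/M lists were those of Seurat in mouse symbols. Doublets were scored in the way of Scrublet (2 simulated doublets per cell, 2000 variable genes, 30 principal components, 100 neighbours) and kept, as the rule asks. They were left out in alternatives. Thinning drew UMIs without replacement. With 1 library per day there is no test, and genes named are the extremes of each list (up to 4 at either end, any member of lists of up to 20), the 12 highest and 12 lowest outside the cell cycle lists at a mean of at least 50 CPM, the 8 that differ most from cells outside the cardiac limits in either direction at 20 CPM, and the cyclins; some of these are given by count only, and some are not reported here. Outside this rule, *Atp2a2*, *Cdc20*, *Cdt1*, *Cenpf*, *Gata4*, *Hmgb2*, *Igf2*, *Mcm3*, *Pcna*, *Slc8a1* and *Tbx5* were chosen after their values were seen, as were the values of *Mcm5*, *Aurkb* and *Malat1* outside the cardiac limits.

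The cells and the lists were chosen with earlier results of these data known. Alternatives were other limits on *Mki67* plus *Top2a*, on *Myl7*, on mitochondrial share, on doublet scores, on other markers, on depth, on the level of genes, another pseudocount, the mean of per-cell CPM and other thinning depths. The restricted sets were added after seeing the data, and so were the limits of the classes by *Myl2*, *Nppa* and *Shox2*. The calculations were tested on simulated data.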

Additional observations from a re-analysis of the deposited data

How the results depend on the processing

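The cells behind each share are fixed by limits, and the values moved with them. The share of cardiac cells that were cycling (15.9%) was 18.1% at a limit of 2 UMIs, 13.5% at 6 UMIs, 12.96% at 2 per 10000, 9.37% without the highest doublet scores, 6.23% without cells that held 2 or more UMIs of other markers, and 12.4% at *Myl7* of 100 per 10000. With other markers under 5 per 10000 it was 11.7%, and 9.46% when the highest doublet scores were left out as well; both of these alternatives were added after seeing the data. The thinned share (17.4%) was 14.7% at 3000 UMIs, 23.5% at 10000 UMIs, 10.6% at 2 or more UMIs, 11.99% without the highest doublet scores, 10.1% without cells with other markers, 14.3% at the higher *Myl7* limit, and 14.0% and 11.96% in the added alternatives. Its ratio to other cells (0.633) was 0.464 without the highest doublet scores, 0.523 at the higher *Myl7* limit and 0.519 at 2 or more UMIs. The ratio of day 11 to day 6 (0.748, 0.588 to 0.957) ranged from 0.733 to 0.852. Its counting interval reached above 1 at 3000 UMIs (0.593 to 1.01), at 10000 UMIs (0.684 to 1.07) and at 2 or more UMIs (0.539 to 1.01).

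The S phase median (1.82) was 2.40 without cells with other markers, which left 20 cycling and 270 non-cycling cells, 2.25 at 10000 to 40000 UMIs per cell, 2.05 from the mean of per-cell CPM and 1.17 at a pseudocount of 10 CPM. The G2/M median (4.26) was 4.62 at 2 per 10000, 4.87 without cells with other markers, 4.71 at 10000 to 40000 UMIs, 2.34 at a pseudocount of 10 CPM and 4.67 in the restricted sets. The sarcomere median (-0.33) was -0.072 without the highest doublet scores, -0.71 without cells with other markers and -0.22 at the higher *Myl7* limit. It was -0.12 with other markers under 5 per 10000 and 0.027 in the restricted sets, where its interval over genes was -0.089 to 0.089. The median of cardiac transcription factors (-0.21) was 0.012 without the highest doublet scores (interval over genes -0.078 to 0.12) and 0.042 in the restricted sets (-0.042 to 0.19). The cause of these shifts was not tested.

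The count of higher genes (296) was 609 without cells with other markers, 72 at a mean of 50 CPM and 675 at 2 CPM. The count of lower genes (16) was 370, 8 and 26 in these settings, 26 at 10000 to 40000 UMIs and 8 at a pseudocount of 10 CPM. The 370 come from the alternative that left 20 cycling cells. In the restricted sets, with the limit on level taken from the restricted cells, it was 16. No paired analysis was possible because each day has 1 library. A limit on mitochondrial share of 10% left the shares and their ratios within the counting intervals of the main values. It left the list medians within their intervals over genes. The counts at this limit were 296 higher and 13 lower genes. Depth and cell number limit the restricted groups along the order from S to M, where *Ccne1* rested on 1 UMI at the M end.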
